A study of Mus musculus with 2 samples.

Results

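The 10 genes described here encode single antiviral effectors outside the large interferon-induced families, and they were read as the rows Rsad2, Cmpk2, Samhd1, Eif2ak2, Zc3hav1, Bst2, Xaf1, Phf11d, Ifi44 and Ifi27 of a table of 21983 genes. They were chosen by symbol with earlier results of the same libraries in view, so the ratios below describe them and support nothing about their selection. RNA was sequenced from primary chondrocytes, the cells of cartilage, of wild-type mice. The control culture was given PBS, and the other was given recombinant mouse Sparcl1, a secreted matricellular protein, at 50 ng/ml, both for 3 days and both in DMEM with serum. Each condition had 1 library, of 29858851 counts for the control and 26871933 for Sparcl1, so no test across cultures was possible and no p-value is given. The number of animals behind each culture was not given in the sources used here.

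Interferons are secreted when a cell senses viral nucleic acid. Their receptors activate transcription factors that bind a DNA element called the interferon-stimulated response element (ISRE) and switch on a large set of genes. The effectors among these act at separate steps of a viral life cycle: they deplete or corrupt nucleotides, stop translation, degrade viral RNA, or hold budding particles at the cell surface. Many are present at a low level without infection and are held there by weak constitutive interferon signalling.

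All 10 genes had a lower level in the Sparcl1-treated library, but by very unequal amounts. Rsad2, Phf11d and Ifi44 were between 2.20-fold and 2.57-fold lower, Xaf1 1.99-fold, Bst2 1.71-fold and Cmpk2 1.62-fold. Eif2ak2 was 1.40-fold lower, while Zc3hav1, Samhd1 and Ifi27 were at 1.15-fold, 1.10-fold and 1.06-fold. Counts were scaled to CPM, a library size-adjusted count (TMM factors), and ratios are Sparcl1-treated over control. The rule for a lower or higher call asked for a 2-fold difference, a 95% counting interval clear of equality and 20 or more counts over both libraries. By that rule 3 of the 10 genes were lower and none was higher, where 0.946% of 13317 measured genes were lower and 0.954% were higher. The genes just inside and just outside the size were Ifi44 at a log2 ratio of -1.14 and Xaf1 at -0.99.

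The start regions of these genes are shown first, since the ISRE is the feature that ties interferon-induced genes together. The genes were chosen by symbol and not by sequence. They were still chosen as effectors linked to interferon, so a raised share of ISRE cores could follow from that choice alone. RefSeq promoter sequences on GRCm38.p6, from 250 bases before the start to 50 after it, were found for 9 of the 10 genes, all but Ifi27. They were searched on both strands for the ISRE core GAAANNGAAA, for the shorter IRF core AANNGAAA that every ISRE core contains, and for the GAS element TTCNNNGAA, which reads the same on both strands. The IRF core was added after the sequences had been seen. The matched stretches are given 5′ to 3′ on the gene's own strand, with bases in an ISRE or IRF core in capitals and with fewer flanking bases where the stretch touches a transcript.
Rsad2, chr12:26456521-26456602, minus strand: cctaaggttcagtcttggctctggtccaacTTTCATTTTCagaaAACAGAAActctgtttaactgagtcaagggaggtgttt
Bst2, chr8:71537557-71537659, minus strand: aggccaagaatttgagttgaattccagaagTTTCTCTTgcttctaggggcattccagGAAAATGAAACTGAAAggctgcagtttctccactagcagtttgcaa
Eif2ak2, chr17:78882535-78882564, minus strand: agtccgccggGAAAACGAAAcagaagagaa
Ifi44, chr3:151749944-151749972, minus strand: tacagagTTTCAGTTTTCGTTTcccgagc
Ifi44, chr3:151749902-151749929, minus strand: agaggaaaagTTTCTCTTcattttctac
Phf11d, chr14:59365476-59365503, minus strand: acatttcgggAAACGAAActaggagcta
Xaf1, chr11:72301602-72301629, plus strand: gggcaaacacTTTCAGTTttgttttcct
Xaf1, chr11:72301630-72301657, plus strand: gtgtgcaaagAAACGAAActccacagaa

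The ISRE core was found in 3 of the 9 start regions, those of Rsad2, Bst2 and Eif2ak2, where 3.44% of 32851 promoters of the same length held it. In Rsad2 it began 120 bases before the start, and in Bst2 overlapping matches began 130 and 124 bases before it. In Eif2ak2, whose product is the kinase PKR, the match began at base 19 of the transcribed part. The IRF core was found in 6 of 9, against 23.9% of all promoters, adding Xaf1, Phf11d and Ifi44. The letters AAACGAAA were matched in Phf11d, in the downstream Xaf1 stretch and in Eif2ak2, and Ifi44 held their reverse complement, TTTCGTTT. Over the whole window, the 5 genes with the lowest ratios (Rsad2, Phf11d, Ifi44, Xaf1 and Bst2) each held an IRF core. Cmpk2, Zc3hav1 and Samhd1 held neither core in it. Eif2ak2 held both cores and had a higher ratio (-0.49) than Cmpk2 with neither (-0.70). The ratios were known when the genes were picked, so this listing supports no link between the letters and the ratios. The GAS element was found in Samhd1, Eif2ak2 and Bst2, 3 of 9 against 8.30% of promoters. These matches describe letters in a short window and show neither binding nor its absence elsewhere.

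**Figure D1:**
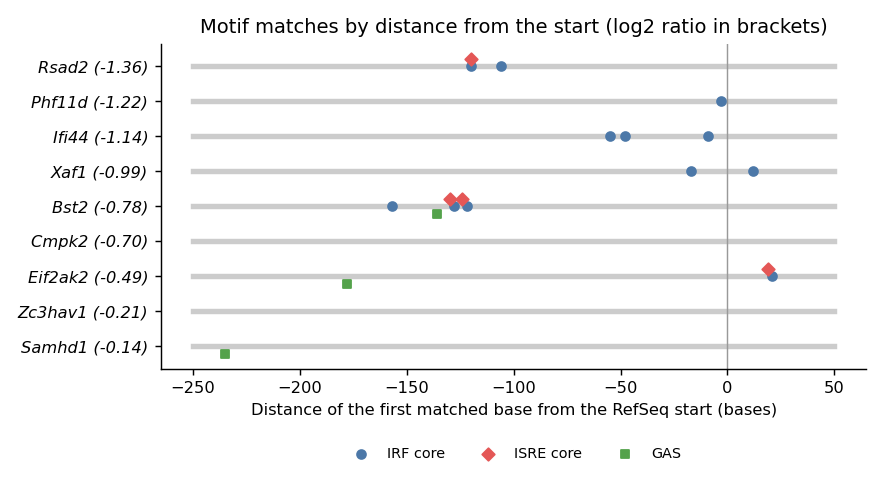
Distance in bases from the RefSeq start (x axis) of the first base of each ISRE core, IRF core and GAS match in the 9 start regions, ordered by log2 ratio. Rsad2, Phf11d, Ifi44, Xaf1, Bst2 and Eif2ak2 each have at least 1 IRF core, and Cmpk2 and Zc3hav1 have no match. The IRF core was added after the sequences had been seen, and the genes were picked with the ratios known.

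The same search covered measured genes other than the members that had a RefSeq promoter sequence under their symbol. Those without one, some of them lower or higher by the size rule, enter neither group below. Of the searched genes, 395 had an ISRE core in the start region and 14 of these (3.54%) were lower by the size rule, with 1 higher. Of 9985 without it, 68 (0.681%) were lower and 82 higher. The median log2 ratio was -0.04 with the core and 0.00 without. For the IRF core the lower shares were 1.45% of 2202 genes and 0.611% of 8178. Since every ISRE core contains an IRF core, the 32 lower genes with an IRF core include the 14 above. The 2 comparisons are therefore not separate.

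Levels between genes were compared per length, as CPM per kb of exon. Ifi27 and Bst2 were by far the most abundant of the 10, at 178.8 and 176.2 CPM per kb in the control, above 98.8% of measured genes. Samhd1, Eif2ak2 and Zc3hav1 followed closely together at 23.8, 22.6 and 20.5. Ifi44 stood at 11.2, Xaf1 at 7.40 and Phf11d at 5.25. Cmpk2 and Rsad2 were the rarest at 1.83 and 1.57, at percentiles 24.6 and 22.5 of measured genes. In the Sparcl1-treated library the order was the same except for Zc3hav1, which at 17.8 lay above Eif2ak2 at 16.1. Together the 10 genes made up 1030 CPM in the control and 802 CPM after Sparcl1, and Bst2 alone carried 29.1% of that difference.

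**Figure D2:**
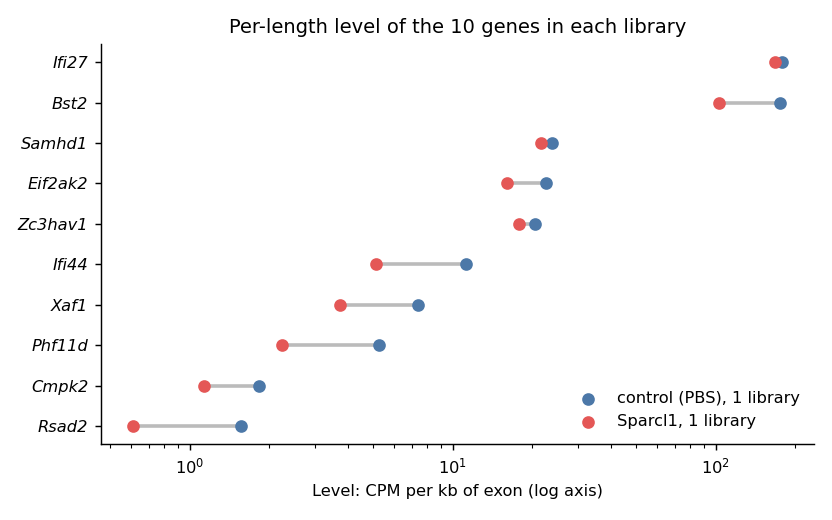
Level of each gene as CPM per kb of exon (log axis), with 1 point for the control library and 1 for the Sparcl1-treated library joined by a line. The genes span from 1.57 (Rsad2) to 178.8 (Ifi27) in the control, and every Sparcl1 point lies to the left of its control point.

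Rsad2 encodes viperin, a radical S-adenosylmethionine enzyme that turns CTP into a chain-terminating nucleotide (chr12:26442746-26456452). The control library gave 201 counts and the Sparcl1-treated library 72, or 6.81 and 2.65 CPM. The treated level was 38.9% of the control level, a log2 ratio of -1.36 with a 95% counting interval of -1.77 to -0.97. Only 73 of the 13317 measured genes had a lower ratio. The interval is wide because the gene is rare, and its upper end lies short of the size rule. Counting intervals are exact (Clopper-Pearson) and treat reads as independent, so they leave out all variation between cultures and any effect of PCR duplicates.

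Cmpk2 encodes the mitochondrial UMP-CMP kinase, which phosphorylates pyrimidine nucleotides, and lies 12.8 kb from Rsad2 (chr12:26469204-26479837), transcribed in the opposite direction. It had 225 and 128 counts, 7.63 and 4.71 CPM, and a log2 ratio of -0.70 (-1.02 to -0.38). In the control the Rsad2 count was 0.893 of the Cmpk2 count, and after Sparcl1 it was 0.562. That change within the pair needs no scaling of libraries. It was -0.67 on the log2 scale with an exact conditional interval of -1.19 to -0.15, so these neighbouring genes differed in ratio by more than counting error.

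Samhd1 encodes the triphosphohydrolase that empties the dNTP pool and so starves reverse transcription (chr2:157097533-157135265). It had 6416 and 5382 counts, 217.5 and 197.9 CPM, and a log2 ratio of -0.14 (-0.19 to -0.08). With this many counts the ratio is well fixed as regards counting, and the treated level was 91.0% of the control level. Among the 3 nucleotide-directed genes, Samhd1 was the most abundant and Rsad2 had the lowest ratio.

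Eif2ak2 encodes PKR, the kinase that binds double-stranded RNA and phosphorylates the translation factor eIF2 (chr17:78852564-78882573). It had 3410 and 2241 counts, 115.6 and 82.4 CPM, and a log2 ratio of -0.49 (-0.57 to -0.41). Zc3hav1 encodes ZAP, a zinc finger protein that binds CpG-rich viral RNA and brings it to decay (chr6:38305286-38354603). It had 3950 and 3157 counts, 133.9 and 116.1 CPM, and a log2 ratio of -0.21 (-0.27 to -0.14). The Eif2ak2 count was 0.863 of the Zc3hav1 count in the control and 0.710 after Sparcl1, a log2 change of -0.28 (-0.39 to -0.18). Of these RNA-directed effectors, PKR thus had the lower ratio by more than counting error. In Eif2ak2, 3.40% of exon bases overlap the antisense transcript Gm26637, from which its reads cannot be separated without strand.

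Bst2 encodes tetherin, a membrane protein that holds budding enveloped virus at the cell surface (chr8:71534255-71537456). It had 4695 and 2525 counts, 159.2 and 92.8 CPM, and a log2 ratio of -0.78 (-0.85 to -0.71). The treated level was 58.3% of the control level. Although it did not reach the size rule, the difference of 66.3 CPM was the largest of the 10 genes.

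Xaf1 encodes a partner of XIAP, the inhibitor of caspases (chr11:72301629-72313733). It had 1024 and 475 counts, 34.7 and 17.5 CPM, and a log2 ratio of -0.99 (-1.15 to -0.83), so its interval spans the size rule. Phf11d encodes a PHD finger protein of an interferon-inducible cluster (chr14:59347407-59365470). It had 697 and 275 counts, 23.6 and 10.1 CPM, and a log2 ratio of -1.22 (-1.43 to -1.02). Among distinct 50-base stretches in Phf11d transcripts, 8.09% also occur in transcripts of other genes, mostly its neighbours Phf11c, Phf11a and Phf11b. Its value is uncertain to the extent that counting split such reads. The shares in the other 9 genes ran from 0 to 2.88%.

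Ifi44 encodes a cytoplasmic interferon-induced protein (chr3:151730922-151749960). It had 2033 and 851 counts, 68.9 and 31.3 CPM, and a log2 ratio of -1.14 (-1.26 to -1.02). It was the most abundant of the 3 genes past the size rule. Ifi27 encodes a small hydrophobic interferon-induced membrane protein (chr12:103434211-103440239). It had 7739 and 6712 counts, 262.3 and 246.8 CPM, and a log2 ratio of -0.09 (-0.14 to -0.04). Its treated level was 94.1% of the control level, the closest to equal of the 10. RefSeq lists Ifi27 as an older name of Ifi27l2a, but the table holds Ifi27l2a as a row of its own. RefSeq also draws Ifi27l2a from 103433873 to 103443680, across all of Ifi27, so reads of both genes may not be fully separate.

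**Figure D3:**
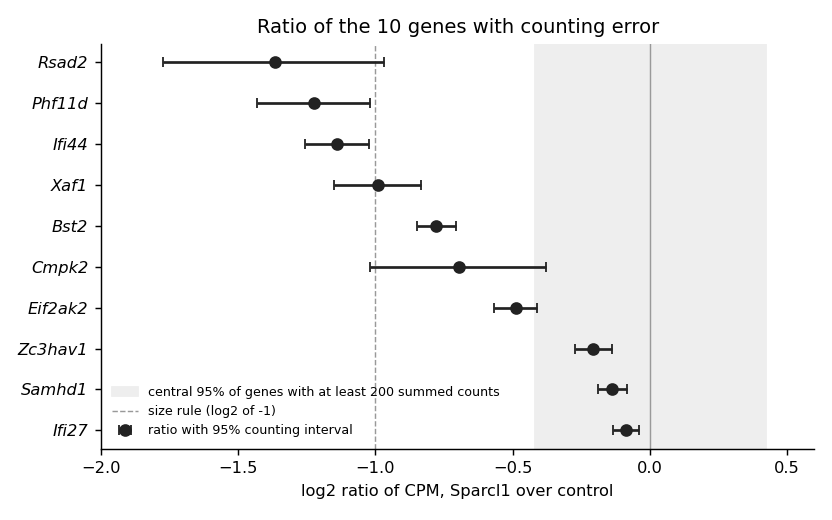
Log2 ratio of CPM, Sparcl1 over control (x axis), of each gene with its 95% counting interval, beside the size rule at -1 (dashed) and the central 95% of genes with at least 200 summed counts (grey). The ratios run from -1.36 (Rsad2) to -0.09 (Ifi27), and only Zc3hav1, Samhd1 and Ifi27 lie inside the grey band.

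As a set, the 10 genes had a median log2 ratio of -0.74, where the 13317 measured genes had a median of 0.00 and 50.4% of them lay below 0. All 10 intervals lay below 0, as did those of 21.6% of measured genes. Of the 10 genes, 7 lay below -0.42, the lower end of the central 95% of the 11194 genes with at least 200 summed counts, a place that 2.50% of those genes take. With a size of 1.5-fold in the rule, 6 of the 10 genes were lower (Xaf1, Bst2 and Cmpk2 in addition), against 2.35% of measured genes. With 3-fold none was, against 0.270%. Since these ratios were known when the genes were picked, the shares describe the set and do not test it.

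**Figure D4:**
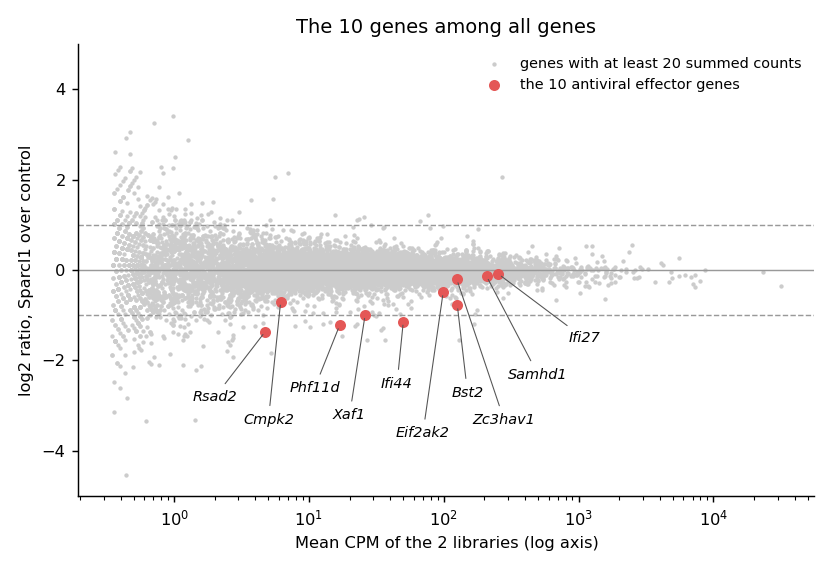
Log2 ratio, Sparcl1 over control (y axis), against mean CPM of the 2 libraries (log axis) for genes with at least 20 summed counts (grey) and the 10 antiviral effector genes (red). Rsad2, Phf11d and Ifi44 lie below the dashed line at -1, and Samhd1 and Ifi27 lie within the grey cloud near 0.

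The order of the 10 ratios was fixed only in part. Over all 45 pairs, the change in the count ratio of the pair between the libraries had an exact interval that excluded 0 in 34. Among the 9 pairs of neighbours in the order it did so in 2, Xaf1 against Bst2 (-0.21, -0.39 to -0.04) and Eif2ak2 against Zc3hav1. No pair among Rsad2, Phf11d, Ifi44 and Xaf1 differed beyond counting error, nor did Zc3hav1 and Samhd1 or Samhd1 and Ifi27. Rsad2 against Ifi44 had a change of -0.22 (-0.65 to 0.19).

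Paralogs and more distant relatives of these genes had log2 ratios from -0.84 to 0.38. Ifi27l2a, next to Ifi27, had 541 and 317 counts and a log2 ratio of -0.65, and relative to Ifi27 it changed by -0.57 (-0.78 to -0.36). Phf11b had 68 and 35 counts (-0.84), and relative to Phf11d its change of 0.38 had an interval of -0.28 to 1.03. Eif2ak1, which encodes another eIF2 kinase, had 1314 and 1290 counts, and Eif2ak2 changed by -0.58 (-0.72 to -0.44) relative to it. Cmpk1, the cytosolic UMP-CMP kinase gene, had a log2 ratio of -0.11, and Cmpk2 changed by -0.58 (-0.91 to -0.25) relative to it. Of 11 measured paralogs and relatives none passed the size rule (0.946% of measured genes were lower and 0.954% higher). Of the 11, 6 had ratios below 1 and the median log2 ratio was -0.11. The list mixes paralogs that neighbour a member with more distant relatives, so its median describes neither kind alone. The highest was Tyw1, a radical S-adenosylmethionine enzyme of transfer RNA modification, at 0.38.

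Apart from Rsad2 beside Cmpk2, no gene next to a member was lower by the size rule. Of the 18 nearest measured neighbours that are not members themselves, 0 were lower and 0 higher, and their median log2 ratio was -0.06. Those counts are near the 0.946% and 0.954% of all measured genes. Of these 18, 12 had ratios below 1. Phf11b beside Phf11d was at -0.84 and Ifi27l2a beside Ifi27 at -0.65, both with intervals below 0. Sult6b1 lies 1.36 kb from Eif2ak2 and had a log2 ratio of -0.05. With 28 and 25 counts its interval was wide, from -0.88 to 0.78. Mvb12a, 5.46 kb from Bst2, was at 0.13, Rnf144a beside Rsad2 at -0.06, and Rbl1 beside Samhd1 at 0.14. Adgrl4 and Ptgfr, which flank Ifi44, were at -0.38 and 0.30.

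Further antiviral effectors were read in 3 lists of 15 genes each, of which none was lower or higher by the size rule. That is near the shares of all measured genes, 0.946% lower and 0.954% higher, so this count alone says little. Counting intervals lay below 0 in 10 genes of the PARP list, 9 of the editing list and 7 of the entry list. They lay above 0 in 0, 0 and 3, and 21.6% of measured genes had intervals below 0. These lists were written by function, with earlier results of these data known. Of 15 PARP, nuclear body and chromatin effectors 13 had ratios below 1 and the median log2 ratio was -0.47. Dtx3l, a ubiquitin ligase that pairs with Parp9, was at -0.76, and Parp14, an ADP-ribosyltransferase, at -0.75. Mlkl, the executor of necroptosis, was at 0.08 and Pml, the organiser of nuclear bodies, at 0.00. Of 15 editing, decay and nuclease effectors 12 had ratios below 1 and the median was -0.19. Ddx60, a helicase, had 360 and 176 counts (-0.92), and Parp12 was at -0.44, whereas the cytidine deaminase gene Apobec3 was at 0.04 and the RNase gene Zc3h12a at 0.16. Of 15 entry, assembly and membrane effectors 10 had ratios below 1 and the median was -0.06. Rtp4 had 1838 and 867 counts (-0.97) and Apol9a 1125 and 548 (-0.92), while Hmox1 and Tspo were at 0.32 and 0.35. With total counts as library sizes every log2 ratio lay 0.035 higher, and 8 of those 15 were then below 1. With upper-quartile factors 14 in place of 13 of the nuclear list were, with Pml then just below equality.

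The lists of partners through which the members act had median log2 ratios from -0.01 to 0.16, and no gene on these lists passed the size rule. Of all measured genes, 0.946% were lower and 0.954% higher by that rule. Trim25, a cofactor of ZAP, was at -0.32. For PKR, 15 genes of the eIF2 step had a median log2 ratio of -0.01 (0.02 with total counts as library sizes), with the stress factor Ddit3 at -0.38, the phosphatase subunit Ppp1r15a at -0.16, and the exchange factor subunits Eif2b1 and Eif2b4 at 0.22 and 0.25. For the nucleotide-directed members, 18 genes of dNTP and CTP supply had a median of 0.04. Rrm2 and Tyms, which make deoxynucleotides in dividing cells, were at 0.42 and 0.46, and Rrm2b and Nt5c3 at -0.25 and -0.24. The 9 genes of cytosolic iron-sulfur assembly, which viperin needs for its cluster, all had ratios above 1, from 0.01 (Narfl) to 0.32 (Nubp2), with a median of 0.08. For Xaf1, 11 inhibitor-of-apoptosis and caspase genes had a median of 0.16, with Xiap itself at -0.19, Birc6 at -0.26, Birc3 at 0.22 and Htra2 at 0.32. For ZAP, 15 exosome and decay genes had a median of 0.03, with Exosc9 and Dcp2 at -0.38 and Exosc2 and Exosc5 at 0.35.

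Upstream of the members, 2 of 14 measured interferon signalling genes were lower by the size rule and none was higher, where 0.946% and 0.954% of measured genes were. The median log2 ratio was -0.08, but the ratios were uneven, with 7 counting intervals below 0 and 2 above it. Not every gene of this list is named here. Both lower genes are themselves interferon-induced: Usp18, the feedback inhibitor of the receptor, at -1.56 and Irf7 at -1.12. The receptor chains Ifnar1 and Ifnar2 were at 0.07 and 0.06. Irf9, which encodes a DNA-binding factor of the response, was at -0.49, and Irf3 and Irf1 were at 0.12 and 0.49. No count of Ifnb1, the gene of interferon beta, was seen in either library.

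**Figure D5:**
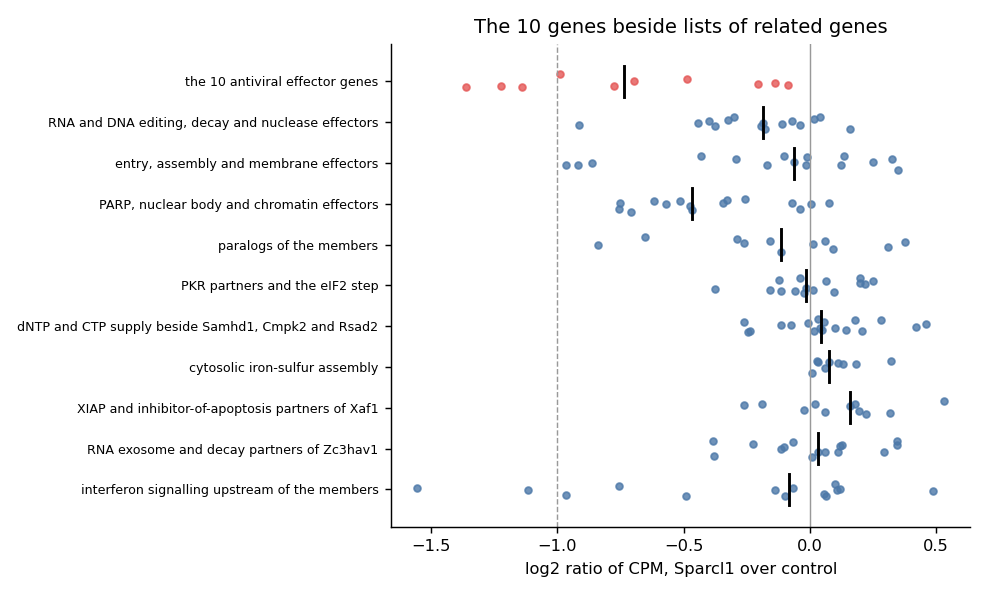
Log2 ratio of CPM, Sparcl1 over control (x axis), of each measured gene (points) and the median (black bar) for the 10 antiviral effector genes and 10 lists of related genes. The median of the 10 genes is -0.74, and those of the other lists run from -0.47 (PARP, nuclear body and chromatin effectors) to 0.16 (partners of Xaf1).

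By ratio alone, the genes with at least 200 summed counts nearest to the median of the 10, outside them and the lists, were Oas1b (-0.74), Oas2 (-0.73), Zfp930 (-0.73), Capn6 (-0.72) and Igtp (-0.75). With 2 libraries this likeness is a single number per gene.

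The cultures held more than chondrocyte transcripts. All 8 chondrocyte markers were measured, with a summed level of 12112 CPM in the control and 10762 after Sparcl1. Of these 8 none passed the size rule, by which 0.946% of measured genes were lower and 0.954% higher. Of the same 8, 7 had ratios below 1 and the median log2 ratio was -0.24. Acan was at -0.50, Hapln1 at -0.35 and Comp at 0.03. All 10 macrophage markers were measured too and none was at 0, and they summed to 2065 and 2391 CPM. Macrophages also express these antiviral genes. Of the 10 macrophage markers 0 were lower and 0 higher by the size rule, 4 had ratios below 1, and the median log2 ratio was 0.04. Fcgr1, an interferon-inducible Fc receptor, was at -0.61 and Lyz2 at 0.31. The 6 osteoblast markers all had ratios below 1, with a median of -0.46, and 4 of their counting intervals lay below 0. They summed to 8465 CPM in the control and 6497 after Sparcl1, mostly Col1a1 with 8206 and 6309 CPM. Of 6 neutrophil markers 4 were at 0 in both libraries. S100a8, a calcium-binding protein gene and the only neutrophil marker with at least 20 summed counts, was higher by the size rule, with 15 and 31 counts (1.16, 0.23 to 2.16). Also at 0 in both libraries were 4 of 6 lymphocyte markers and, among 6 plasmacytoid dendritic cell markers, Siglech and Klk1. Only 2 of these 6 dendritic markers had at least 20 summed counts. Tcf4 was abundant, with 238.1 and 223.0 CPM (-0.09, -0.14 to -0.04), which alone does not show that such cells were present. Cox6a2 was rare, with 2.95 and 1.80 CPM (-0.71, -1.25 to -0.19). Neither passed the size rule, and Ccr9 and Pacsin1 stayed under 20 summed counts. Endothelial markers were rare, with 7.76 and 5.18 CPM in all. The part of any cell type in the ratios of the 10 genes was not tested, and in bulk libraries fewer cells of a type and less RNA per cell cannot be told apart.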

How the data were processed

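RNA-seq libraries of 1 control and 1 Sparcl1-treated mouse chondrocyte culture were analysed from the authors' deposited table of raw counts per gene symbol, with 1 column for each library, assigned through its title. The submitters' processing notes name HTSeq, STAR, FastQC and Trimmomatic, and mm10 as the build. Versions, annotation, strand setting and the handling of reads with several matches are not given in the sources used here. Library sizes were scaled with TMM (edgeR 4.0.16, R 4.3.3), and 99.5% of symbols matched 1 gene of GENCODE M21 on GRCm38, the assembly mm10 names, which gave coordinates and union exon lengths. In 26 entries the symbol had become a date; they stayed in the totals.

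With 1 library per group no test was made. Each log2 ratio has a 95% interval for counting error only, from the Clopper-Pearson limits of the treated share of a gene's counts. A count of 0 entered a ratio as 3 counts. Ratios between genes used the conditional odds ratio (scipy 1.17.1). The steps were tested on simulated data. Promoters came from RefSeq (GRCm38.p6). The members and lists were chosen with earlier results of these data known. Named genes are the members, the 2 highest and 2 lowest genes of each list with at least 200 summed counts, any gene of a list past the rule, nearest measured neighbours, and the 5 genes closest in ratio; a few others were picked as examples with their values in view. The value of 1 gene on the lists is left out here. Alternatives were other scalings (total counts, DESeq2 1.42.0 size factors, upper quartile), count filters, sizes and a prior count of 2.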

Additional observations from a re-analysis of the deposited data

How the results depend on the processing

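Every one of the 10 genes had a ratio below 1 under total counts, DESeq2 size factors, upper-quartile factors and a prior count of 2. The 40 log2 ratios so obtained (10 genes, 4 settings) all lay within the counting intervals of the main values. The largest shift by a scaling was 0.035 and by the prior count 0.023. Rsad2, Phf11d and Ifi44 were the 3 lower genes under each scaling, with no count filter and with at least 100 summed counts. The size of the rule moved the count. With 1.5-fold, 6 of the 10 genes, 14 genes of the related lists (2 by the main rule) and 313 of all genes were lower and 309 higher. With 3-fold, 0 of the 10, 0 of the lists and 36 of all genes were lower and 44 higher. Over all genes 126 were lower and 127 higher by the main rule, 38 and 20 with at least 100 summed counts, and 201 were higher with no filter. With the IRF core in place of the ISRE core, 6 start regions in place of 3 held a match.

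No paired analysis was possible because each group had 1 library, and none was left out. Depth limits Rsad2 and Cmpk2 most, with 273 and 353 summed counts.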

Other observations

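Among genes with a RefSeq promoter sequence, 14 outside the 10 held an ISRE core in the start region and were lower by the size rule. They were Ifi206, Ifi213, Gm12185, Ifit1, Oas1g, Ifit3b, Isg15, Oas3, Ifi203, Gbp3, Ifit3, Plekha4, Trim30d and Trim30a, named after their values were seen. Most belong to known interferon-induced families. For Plekha4, which encodes a pleckstrin homology domain protein, 581 and 243 counts gave -1.14 on the log2 scale (95% counting interval -1.36 to -0.92). Isg15 had 1471 and 557 counts (-1.28). Sequence shared with other genes was not measured for these 14, several of which belong to multigene families, so single values may mix reads of related genes.

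Ifi27 and Bst2 had nearly the same per-length level in the control library, 178.8 and 176.2 CPM per kb, and ratios of -0.09 and -0.78. Rsad2 and Cmpk2, the rarest of the 10 genes, also differed from each other, at -1.36 and -0.70.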
